A study of Homo sapiens with 6 samples.

Results

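The collagen chain genes are the genes whose symbol in the array's annotation is COL, a number, A and a number, with nothing after, such as COL1A1. Of 19775 genes with a symbol of their own on the array, 43 matched, from COL1A1 to COL28A1, and 112 probe sets report them. COL17A1, a transmembrane collagen, had no probe set with a symbol of its own and is not among the 43. Each gene is described by its brightest probe set, the one with the highest mean log2 signal over 6 Affymetrix U133 Plus 2.0 arrays. Total RNA came from the human ovarian carcinoma lines Caov-3 and SKOV-3. Cells of each line were given the anti-IL-6 antibody siltuximab (CNTO328) for 4 h and then interleukin-6 (IL-6) for 1 h, IL-6 alone at 30 ng/ml for 1 h, or neither. Each of these 6 groups had 1 array, made from the pooled RNA of 3 flasks, so that a difference within a line has no replicate check, and the antibody's dose is not given in the labels. A line was compared with the other over its 3 arrays, which are 3 treatments and not replicates. Precision is limited by the few arrays, and in bulk RNA fewer cells with a transcript and less of it per cell cannot be told apart.

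Collagens are secreted or membrane-bound proteins whose alpha chains wind into a triple helix of repeated glycine-containing triplets. Fibrillar chains build the fibres of connective tissue, type IV chains the sheet of the basement membrane under epithelium, and other families decorate fibrils, form beaded filaments or cross the plasma membrane. In ovarian carcinoma, fibrillar collagen is known mainly as a product of stromal fibroblasts, while epithelial cells lay down basement membrane.

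All type IV genes differed between the lines, and they lie in head-to-head pairs that share the stretch between their starts. In the RefSeq promoter table (build GRCh38.p14) the starts of COL4A1 and COL4A2 on chromosome 13 are 127 bases apart on opposite strands, those of COL4A4 and COL4A3 on chromosome 2 419 bases, and those of COL4A6 and COL4A5 on chromosome X 380 bases. The whole stretch between the COL4A1 and COL4A2 starts is printed here on the COL4A2 strand (chr13:110307158-110307283), with the 250 bases before the COL4A6 start nearer to COL4A5 (chrX:108439459-108439708, minus strand) and of COL13A1 (chr10:69801656-69801905, plus strand). COL4A6 and COL13A1 were the members with the highest and the lowest difference. Capitals mark letters found on either strand: the CCAAT box by its name, the GC box, spelled GGGCGG, and the TATA box, spelled TATAAA. No capitals overlap.
COL4A1/COL4A2: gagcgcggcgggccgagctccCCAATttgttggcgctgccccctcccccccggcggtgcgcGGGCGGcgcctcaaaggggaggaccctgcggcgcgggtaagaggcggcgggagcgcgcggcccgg
COL4A6: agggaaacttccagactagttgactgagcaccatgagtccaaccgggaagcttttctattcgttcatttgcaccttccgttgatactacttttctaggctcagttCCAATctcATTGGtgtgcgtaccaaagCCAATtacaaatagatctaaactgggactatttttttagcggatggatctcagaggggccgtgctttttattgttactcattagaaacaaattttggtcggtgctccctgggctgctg
COL13A1: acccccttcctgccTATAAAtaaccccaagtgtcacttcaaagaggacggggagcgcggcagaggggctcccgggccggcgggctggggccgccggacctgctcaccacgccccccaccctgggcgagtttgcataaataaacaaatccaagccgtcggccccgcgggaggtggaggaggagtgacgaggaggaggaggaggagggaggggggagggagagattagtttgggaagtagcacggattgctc

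The COL4A1/COL4A2 stretch is 80.2% G and C, holds 20 CpG dinucleotides in 126 bases and has 1 CCAAT match and 1 GC box match. The COL4A6 sequence is 44% G and C, with 7 CpG in 250 bases and 3 CCAAT matches. The COL13A1 sequence is 64% G and C, with 16 CpG and 1 TATA box match. Of 35116 promoter windows in the table, 32% hold a CCAAT match in the 250 bases before the start, 42.6% a GC box match and 10.7% a TATA box match. In the 126 bases before the start these shares are 21.1%, 34.6% and 5.87%. The table held a window for 31 of the 43 genes, and a match describes letters only.

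The arrays were scaled alike by the authors, with a mean of 500.06 to 500.07 after trimming 2% at each end. The ratio of the ACTB control probe sets at the 5' and 3' ends, a measure of RNA integrity, was lowest for IL-6 in Caov-3 (0.494), with 0.643 to 0.767 elsewhere. The same ratio for GAPDH did not set that array apart. It was 1.05 there, 1.07 with siltuximab plus IL-6 and 1.03 untreated in Caov-3, and 0.957 to 0.979 in SKOV-3. All 7 epithelial markers examined were at or above the array median on at least 2 arrays, but 3 of them, KRT19, CDH1 and MUC16, on Caov-3 arrays alone. The keratin genes KRT8 and KRT18 did not pass the test between the lines. The epithelial adhesion gene CDH1 was at 4763 to 5094 in Caov-3 and 11.0 to 27.5 in SKOV-3, and KRT19 at 7263 to 7936 in Caov-3 and 4.37 to 57.9 in SKOV-3. Of 3 endothelial markers only PECAM1 reached the median on at least 2 arrays, with VWF and CDH5 under it on all 6, and of 4 leukocyte markers CD79A and LCP1. The endothelial markers summed to 408.2 to 1206 in Caov-3 and 156.8 to 249.6 in SKOV-3, and PECAM1 was higher in Caov-3 (2.09, adjusted p 0.00097). That rests on its brightest probe set. The other probe sets of PECAM1 were under the median on all 6 arrays, with line differences of 0.06, 0.29, 0.63 and -0.22. The leukocyte markers summed to 302.9 to 324.6 in Caov-3 and 289.9 to 605.4 in SKOV-3, with neither gene called. The part of these genes in the collagen differences was not tested.

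On the Caov-3 arrays 19 or 20 of the 43 collagen genes were at or above the array's median signal for probe sets with a symbol, and 11 on each SKOV-3 array. Of all genes, 57% to 58.7% were on the Caov-3 arrays and 55.1% to 56.1% on the SKOV-3 arrays, so the collagen genes were below that share in both lines. At least 2 such arrays were needed to enter the tests, and 21 genes did. The other 22 were dim, between 0.975 and 123.6, with 20 of them under the median on all 6 arrays. Among them were COL1A2 and COL3A1, chains of the main fibres of connective tissue, and COL6A3, the chain that completes collagen VI. All 3 probe sets of COL1A2 and all 5 of COL3A1 stayed under the median on every array. COL8A1 and COL8A2, chains of a hexagonal lattice, each reached the median on 1 array only. When all 19775 genes were tested without a filter, 19 of the 43 were called between the lines, beside 44.6% of all genes, and none of the 22 was among them.

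Between Caov-3 and SKOV-3, 14 collagen genes were higher in Caov-3 and 6 lower (adjusted p under 0.05 with limma, Benjamini-Hochberg over 12290 genes), where 38.6% of all genes tested were higher and 32.3% lower. Of the 21, 20 were called, beside 70.8% of all genes, and in 20 the arrays of the lines did not overlap, beside 74.1%. The median difference was 2.20 (log2) among the 21 and 0.07 among all genes tested, and its median size 2.48 and 0.68. These values cover only members bright enough to be tested. Of the 21, 8 passed the filter through Caov-3 arrays alone and 2 through SKOV-3 arrays alone. For such members the filter favours a difference without forcing it. COL9A3 passed through SKOV-3 alone, and its lines overlapped. Called differences of at least 2-fold numbered 13 higher (20.1% of all genes) and 4 lower (14.6%). All log2 values are of signal plus 17.06, which understates the differences of dim genes, and where the signals of a line are near or under that constant the size depends on it.

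**Figure D1:**
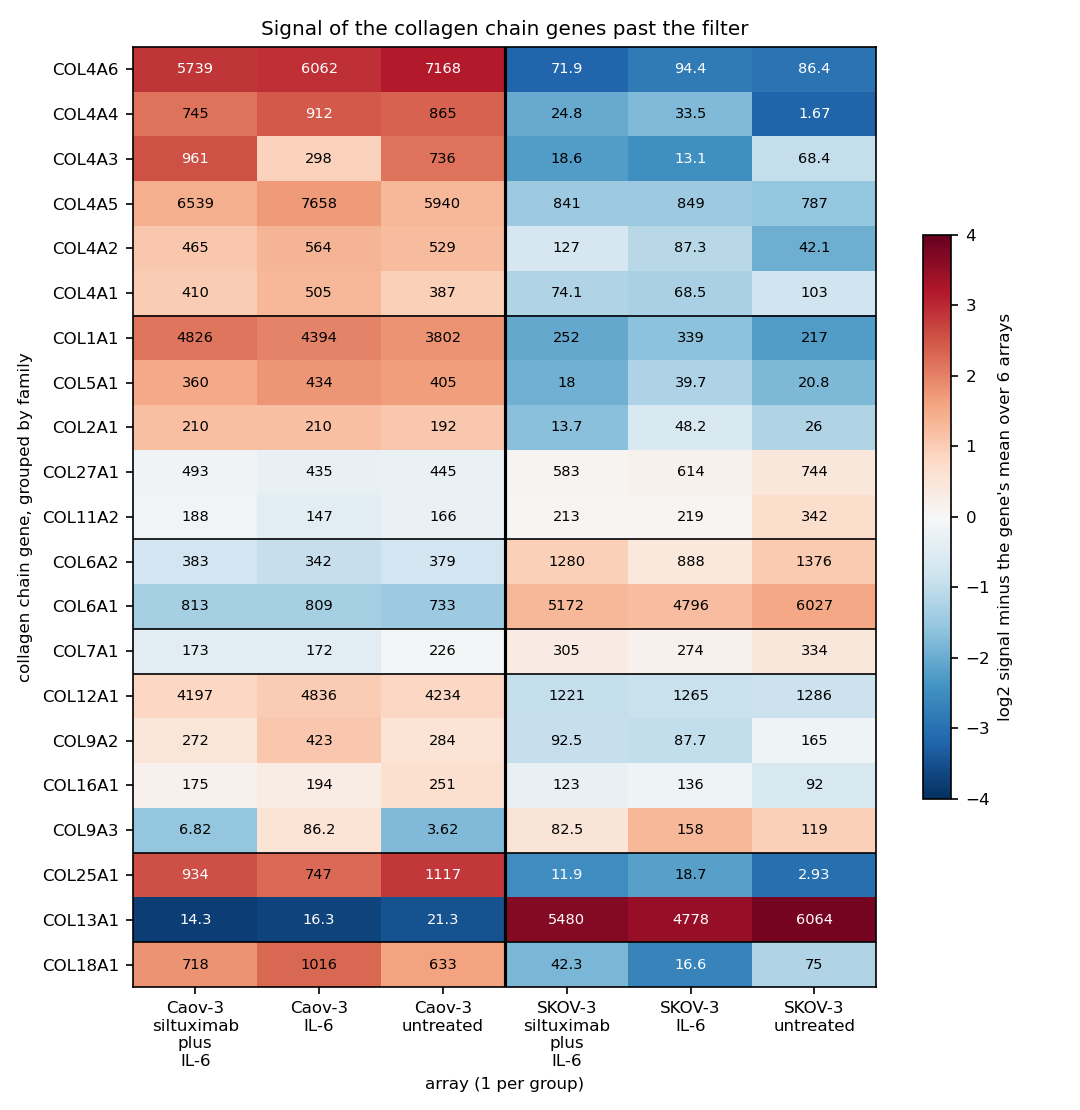
Signal of the 21 collagen chain genes past the filter (rows, grouped by family) on each of 6 arrays (columns, 1 per group). Printed numbers are the signals, and colour is the log2 signal minus the gene's own mean, so that rows are not to be compared with each other in level. All 6 type IV rows are red in Caov-3 and blue in SKOV-3, and COL13A1 is the reverse.

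All 6 type IV chains, which form the network of the basement membrane, were higher in Caov-3 without overlap of the arrays. COL4A6, a chain of a network in some specialised basement membranes, stood at 5739 with siltuximab plus IL-6, 6062 with IL-6 and 7168 untreated in Caov-3, against 71.9, 94.4 and 86.4 on the SKOV-3 arrays in the same conditions. Every Caov-3 array was far above every SKOV-3 array. The log2 difference was 5.97 (SE 0.118, adjusted p 1.61e-07), rank 58 from the top of 12290 genes. Its head-to-head partner COL4A5, whose chain occurs in networks with either COL4A6 or COL4A3 and COL4A4, was at 6539, 7658 and 5940 in Caov-3 and at 840.8, 849 and 787 in SKOV-3. COL4A5 was bright in both lines, and its difference was 2.99 (SE 0.089, adjusted p 6.33e-07).

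COL4A3 and COL4A4 encode chains that join COL4A5 in the network of the kidney glomerulus and a few other tissues. COL4A4 was at 744.7 with siltuximab plus IL-6, 912 with IL-6 and 865 untreated in Caov-3, against 24.8, 33.5 and 1.67 in SKOV-3. The SKOV-3 signals were all under the array median, and the log2 difference was 4.65 (SE 0.314, adjusted p 1.68e-05). COL4A3 was at 961, 298 and 735.5 in Caov-3 and at 18.6, 13.1 and 68.4 in SKOV-3. Its lowest Caov-3 value, with IL-6, was still above the highest SKOV-3 value. The difference was 3.77 (SE 0.339, adjusted p 6.2e-05), and 3.26 to 4.08 when an array was left out (3.96 for the IL-6 array of Caov-3). Leaving out an array takes its treatment out of the line difference, since the other line's array then has no partner.

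COL4A1 and COL4A2 encode the chains found in nearly all basement membranes. COL4A1 was at 409.7 with siltuximab plus IL-6, 505 with IL-6 and 387 untreated in Caov-3, against 74.1, 68.5 and 102.8 in SKOV-3, a log2 difference of 2.20 (SE 0.222, adjusted p 0.00011). COL4A2 was at 465, 564 and 529 in Caov-3 and 126.6, 87.3 and 42.1 in SKOV-3, a difference of 2.48 (SE 0.284, adjusted p 0.000204). The members of each head-to-head pair differed the same way. COL4A1, COL4A3, COL4A4 and COL4A6 passed the filter through Caov-3 alone, and COL4A2 reached the median on a single SKOV-3 array, with siltuximab plus IL-6.

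**Figure D2:**
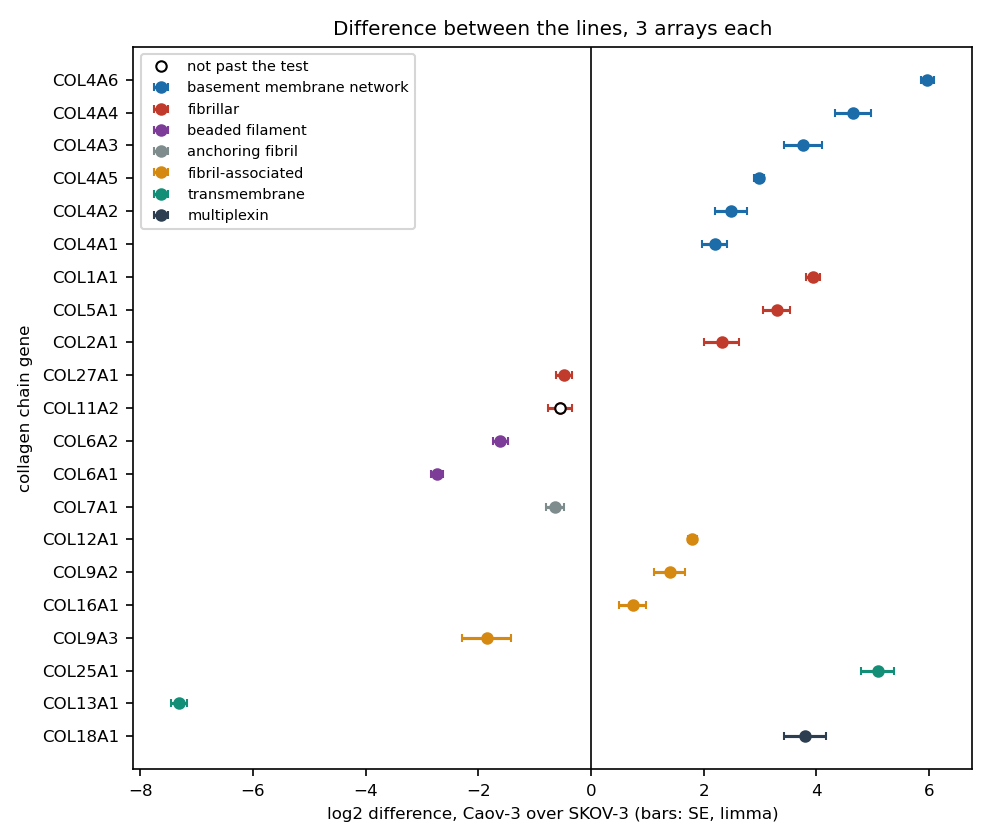
Log2 difference of Caov-3 over SKOV-3 (horizontal axis) for the 21 collagen chain genes past the filter, coloured by family, with SE bars from limma over 3 arrays of each line. The 6 type IV genes lie between 2.20 and 5.97, COL13A1 lies at -7.31, and the open point is COL11A2, which did not pass the test.

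Among 11 fibrillar genes, 5 entered the test, and 3 were higher and 1 lower (background 38.6% and 32.3%). COL1A1, the main chain of type I collagen of bone, skin and tumour stroma, was at 4826 with siltuximab plus IL-6, 4394 with IL-6 and 3802 untreated in Caov-3, against 252, 339 and 217 in SKOV-3. The arrays of both lines were above the median, and the log2 difference was 3.94 (SE 0.128, adjusted p 8.2e-07). COL5A1, a chain of type V collagen that starts fibrils, was at 359.5, 434 and 405 in Caov-3 and 18.0, 39.7 and 20.8 in SKOV-3, a difference of 3.30 (SE 0.238, adjusted p 2.21e-05). COL2A1, the cartilage collagen, was at 209.8, 210.3 and 192 in Caov-3 and 13.7, 48.2 and 26.0 in SKOV-3, a difference of 2.32 (SE 0.31, adjusted p 0.000435). COL2A1 and COL5A1 were under the median on all SKOV-3 arrays. COL5A2, the usual partner of COL5A1, was dim on all 6 arrays at 30.9 to 90.1, as COL1A2, the usual partner of COL1A1, was at 10.5 to 42.4.

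Of 7 markers of fibroblasts, a stromal cell that makes fibrillar collagen, 6 (DCN, LUM, PDGFRA, PDGFRB, THY1 and FAP) were under the median on all 6 arrays. ACTA2, which muscle-like cells also express, was the exception. The 7 markers summed to 728 to 822 in Caov-3 and to 391.6 to 421.1 in SKOV-3, and ACTA2 alone was at 543.2 to 590.4 in Caov-3 and at 160.2 to 199.4 in SKOV-3. PDGFRA ran the other way, at 3.18 to 15.3 in Caov-3 and 53.3 to 89.9 in SKOV-3 (limma without a filter, adjusted p 0.00476). PDGFRB was at 13.5 to 39.5 in Caov-3 and 9.79 to 11.5 in SKOV-3 (0.26). The other dim markers overlapped between the lines.

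COL27A1, a fibrillar chain of cartilage, and COL11A2, a minor chain of cartilage fibrils, ran the other way. COL27A1 was at 493 with siltuximab plus IL-6, 435 with IL-6 and 445 untreated in Caov-3, against 583, 614 and 744 in SKOV-3, a difference of -0.48 (SE 0.139, adjusted p 0.0178). That call was lost without either untreated array, at -0.36 in both cases (adjusted p 0.101 without the Caov-3 one and 0.108 without the SKOV-3 one). COL11A2 was at 187.6, 147 and 166 in Caov-3 and 213, 219 and 342.5 in SKOV-3, a difference of -0.55 that did not pass (SE 0.213, adjusted p 0.051). Without the siltuximab plus IL-6 array of Caov-3 it passed at -0.75 (adjusted p 0.0401), and without that of SKOV-3 at -0.75 (0.0462).

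Collagen VI, a beaded filament around cells, and collagen XIII, a transmembrane collagen of cell contacts, were lower in Caov-3. COL13A1 was at 14.35 with siltuximab plus IL-6, 16.3 with IL-6 and 21.3 untreated in Caov-3, against 5480, 4778 and 6064 in SKOV-3. The log2 difference was -7.31 (SE 0.136, adjusted p 1.35e-07). The Caov-3 signals lay near the added 17.06, so that the size depends on it, with -8.23 after adding 1 and -5.43 after adding the median signal. COL6A1 was at 813, 809 and 733 in Caov-3 and 5172, 4796 and 6027 in SKOV-3, a difference of -2.73 (SE 0.111, adjusted p 2e-06). COL6A2, the chain it pairs with, was at 383, 342 and 379 in Caov-3 and 1280, 888 and 1376 in SKOV-3, a difference of -1.61 (SE 0.134, adjusted p 4.21e-05). Both genes were above the median in both lines. The other beaded filament genes, COL6A3, COL6A5 and COL6A6, were dim in both.

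COL25A1, a transmembrane collagen known from neurons and muscle innervation, was at 933.5 with siltuximab plus IL-6, 747 with IL-6 and 1117 untreated in Caov-3, against 11.9, 18.7 and 2.93 in SKOV-3. It was dim on every SKOV-3 array, with a difference of 5.09 (SE 0.298, adjusted p 8.93e-06). COL13A1 and COL25A1, of the same structural class, thus differed in opposite ways. COL18A1, the basement membrane collagen from which endostatin is cut, was at 718.5, 1016 and 633 in Caov-3 and 42.3, 16.6 and 75 in SKOV-3, a difference of 3.80 (SE 0.377, adjusted p 9.99e-05). It was 3.23 to 4.29 when an array was left out.

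Of the fibril-associated collagens, 4 of 10 entered the test. COL12A1, which coats type I fibrils, was at 4197 with siltuximab plus IL-6, 4836 with IL-6 and 4234 untreated in Caov-3, against 1221, 1265 and 1286 in SKOV-3, a difference of 1.80 (SE 0.0852, adjusted p 3.74e-06). COL9A2, a chain of collagen IX of cartilage, was at 271.5, 423 and 284 in Caov-3 and 92.5, 87.7 and 165 in SKOV-3, a difference of 1.40 (SE 0.275, adjusted p 0.00305). COL9A3, which forms the same trimer as COL9A2, differed the other way and less steadily. It was at 6.82, 86.2 and 3.62 in Caov-3 and 82.5, 158 and 119 in SKOV-3, so that the Caov-3 IL-6 array reached the SKOV-3 range. The difference of -1.85 (SE 0.439, adjusted p 0.00739) rests on 2 SKOV-3 arrays at or above the median. It was -2.39 with the IL-6 array of Caov-3 left out and -1.41 (adjusted p 0.0323) with the untreated one, and it was -3.0 after adding 1 to the signals and -0.72 after adding the median. Without either of those SKOV-3 arrays the gene did not pass the filter.

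COL16A1, which joins small fibrils, and COL7A1, whose anchoring fibrils tie epithelium to the layer beneath, differed little. COL16A1 was at 175 with siltuximab plus IL-6, 194 with IL-6 and 250.8 untreated in Caov-3, against 123, 136 and 92.0 in SKOV-3, a difference of 0.74 (SE 0.246, adjusted p 0.0299). It lost the call without either untreated array, at 0.46 in both cases (adjusted p 0.139 without the Caov-3 one and 0.119 without the SKOV-3 one), and without a filter on dim genes (0.0628). COL7A1 was at 173, 172 and 226 in Caov-3 and 305, 274 and 334 in SKOV-3, a difference of -0.64 (SE 0.165, adjusted p 0.0108). The call was lost without either siltuximab plus IL-6 array, at -0.58 in both cases (adjusted p 0.0699 without the Caov-3 one and 0.0869 without the SKOV-3 one).

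Further probe sets of these genes were read beside the brightest ones. Of 44 further probe sets of the 21 genes, 27 were at or above the median on at least 2 arrays, and 26 of those had the sign of the brightest probe set, 25 without overlap of the lines. This covered 15 genes, and the exception was COL7A1, whose other probe set was at 0.14. Many of the 27, such as those of COL4A6 and COL13A1, reached the median in 1 line only, which favours a difference between the lines. For these the filter also favours a lack of overlap. The size varied more than the sign. The further bright probe sets of COL1A1 were at 3.18, 1.84 and 0.58, those of COL4A6 at 4.91 and 2.69, and those of COL13A1 at -3.07 and -2.84. COL6A2 was at -0.25 with its second probe set. Probe sets of a gene share the RNA of an array and are not replicates.

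**Figure D3:**
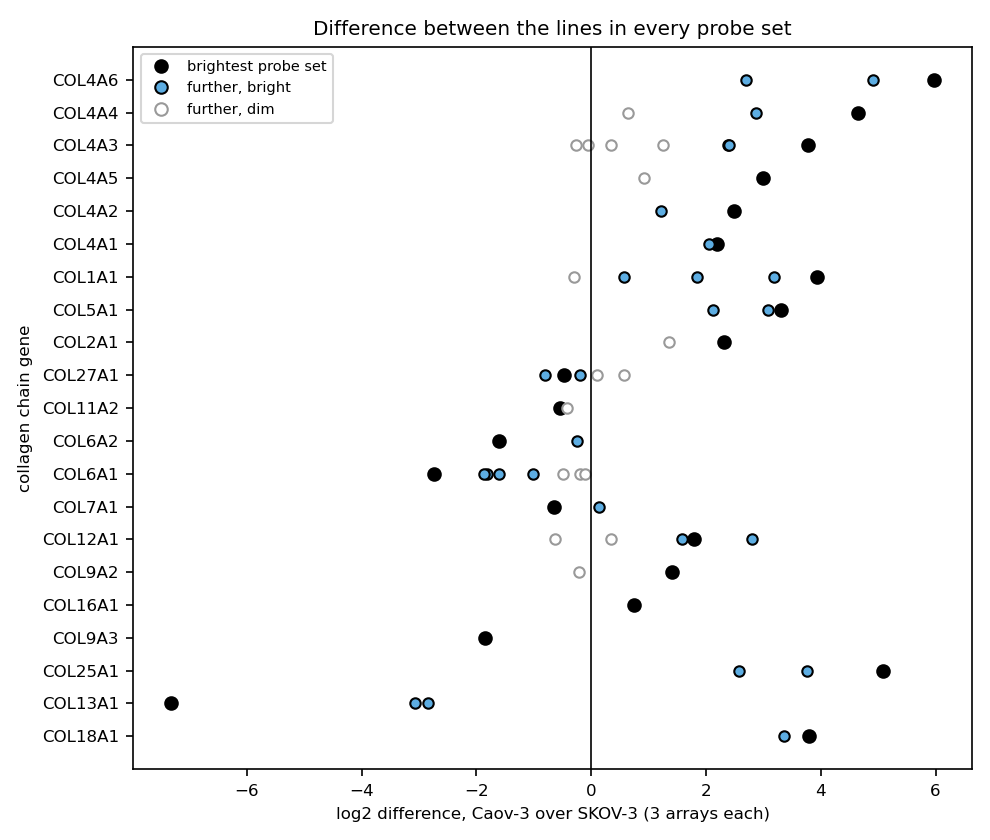
Log2 difference of Caov-3 over SKOV-3 (horizontal axis, 3 arrays of each line) for every probe set of the 21 collagen chain genes past the filter. Black points are the brightest probe sets, blue points (bright) further ones at or above the array median on 2 or more arrays, and open points (dim) the rest. Apart from COL7A1 every blue point lies on the side of its black point.

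Treatment moved no collagen gene past the test. Over both lines, limma called 0 of the 21 for IL-6 over untreated (smallest adjusted p 0.416, 3 under 0.05 unadjusted), 0 for siltuximab plus IL-6 over IL-6 (0.983, 1 unadjusted) and 0 for siltuximab plus IL-6 over untreated (0.866, 0 unadjusted). The background was 0% of 12290 genes in each, with 1182, 398 and 705 genes at an unadjusted p under 0.05. The lines stand in for replicates in that fit and leave 2 residual degrees of freedom. These comparisons share arrays with each other. The genes with an unadjusted p under 0.05 for IL-6 were COL1A1 (log2 difference 0.41, SE 0.157), COL4A3 (-1.38, SE 0.415) and COL9A3 (1.34, SE 0.538). COL9A3 was under the median on all Caov-3 arrays, with a log2 fold of 2.32 there and 0.36 in SKOV-3. COL4A3 was under it on all SKOV-3 arrays, with -1.50 there and -1.26 in Caov-3.

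Within a line, folds of a single array over another were described without a test, for genes whose higher array was at or above its median, which in Caov-3 takes in COL8A1 and COL8A2 from outside the 21 genes above. With IL-6 over untreated in Caov-3, 1 of 21 collagen genes was at least 2-fold apart, beside 3.91% of all genes, and with siltuximab plus IL-6 over IL-6 1 of 20, beside 3.09%. Both are COL4A3. With siltuximab plus IL-6 over untreated in Caov-3 the count was 0 of 20, beside 1.06%. In SKOV-3 it was 0 of 12 with IL-6 over untreated (2.08% of all genes), 0 of 12 with siltuximab plus IL-6 over IL-6 (1.04%) and 1 of 13 with siltuximab plus IL-6 over untreated (1.88%), which was COL4A2.

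COL4A3, at 961 with siltuximab plus IL-6, 298 with IL-6 and 735.5 untreated in Caov-3, was low on the IL-6 array alone. Its log2 fold was -1.26 for IL-6 over untreated and 1.63 for siltuximab plus IL-6 over IL-6, where genes of like expression scattered with a robust SD (from the median absolute deviation) of 0.41 and 0.38. Both further probe sets of COL4A3 at or above the median on 2 arrays ran the same way, at -1.05 and -0.58 for IL-6 over untreated and at 1.03 and 1.22 for siltuximab plus IL-6 over IL-6. Probe sets of its neighbour COL4A4 disagreed, with 0.08 in the brightest and -1.71 in another (48.6 with IL-6 against 198 untreated). The low array is the one with the ACTB ratio of 0.494 and a GAPDH ratio of 1.05, and the part of RNA integrity in this was not tested. The brightest probe set of the endothelial marker PECAM1, the only one not dim, was also low there. It was at 891.5 with siltuximab plus IL-6, 331.4 with IL-6 and 1162 untreated in Caov-3. Its folds were 1.38 for siltuximab plus IL-6 over IL-6 and -1.76 for IL-6 over untreated. In SKOV-3 COL4A3 was too dim to enter.

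COL4A2 in SKOV-3 was at 126.6 with siltuximab plus IL-6, 87.3 with IL-6 and 42.1 untreated, with only the siltuximab plus IL-6 array above its median. The log2 fold of siltuximab plus IL-6 over untreated was 1.28 (robust SD 0.35). COL4A1, its pair partner, was at 74.1, 68.5 and 102.8 on the same arrays, and the second probe set of COL4A2 at 47.7, 40.6 and 45.0. In Caov-3 the fold of COL4A2 was -0.18 (robust SD 0.33).

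COL1A1 was at 0.21 in Caov-3 and 0.61 in SKOV-3 for IL-6 over untreated (robust SD 0.25 and 0.26), and at 0.13 and -0.40 for siltuximab plus IL-6 over IL-6. Further probe sets of COL1A1 disagreed in SKOV-3 for IL-6 over untreated, with -0.25 in the one at or above the median on all 6 arrays and -0.36, 0.08 and -0.91 in the others, which were dim there. COL6A2 in SKOV-3 was at -0.62 with IL-6 over untreated and at 0.52 with siltuximab plus IL-6 over IL-6, with 888 on the IL-6 array against 1280 and 1376. COL6A1 was at -0.33 and 0.11 in the same comparisons. COL18A1 in Caov-3 was at 0.67 with IL-6 over untreated and -0.49 with siltuximab plus IL-6 over IL-6. The largest folds under 2-fold were those of COL8A1 in Caov-3 (0.98 with IL-6 over untreated, robust SD 0.54) and, in SKOV-3, of COL9A3 (-0.82 with siltuximab plus IL-6 over IL-6, robust SD 0.46) and COL9A2 (-0.80 with IL-6 over untreated, robust SD 0.39). The median fold of the members was 0.09 in Caov-3 and -0.27 in SKOV-3 for IL-6 over untreated, where that of all genes was 0.08 and -0.05.

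**Figure D4:**
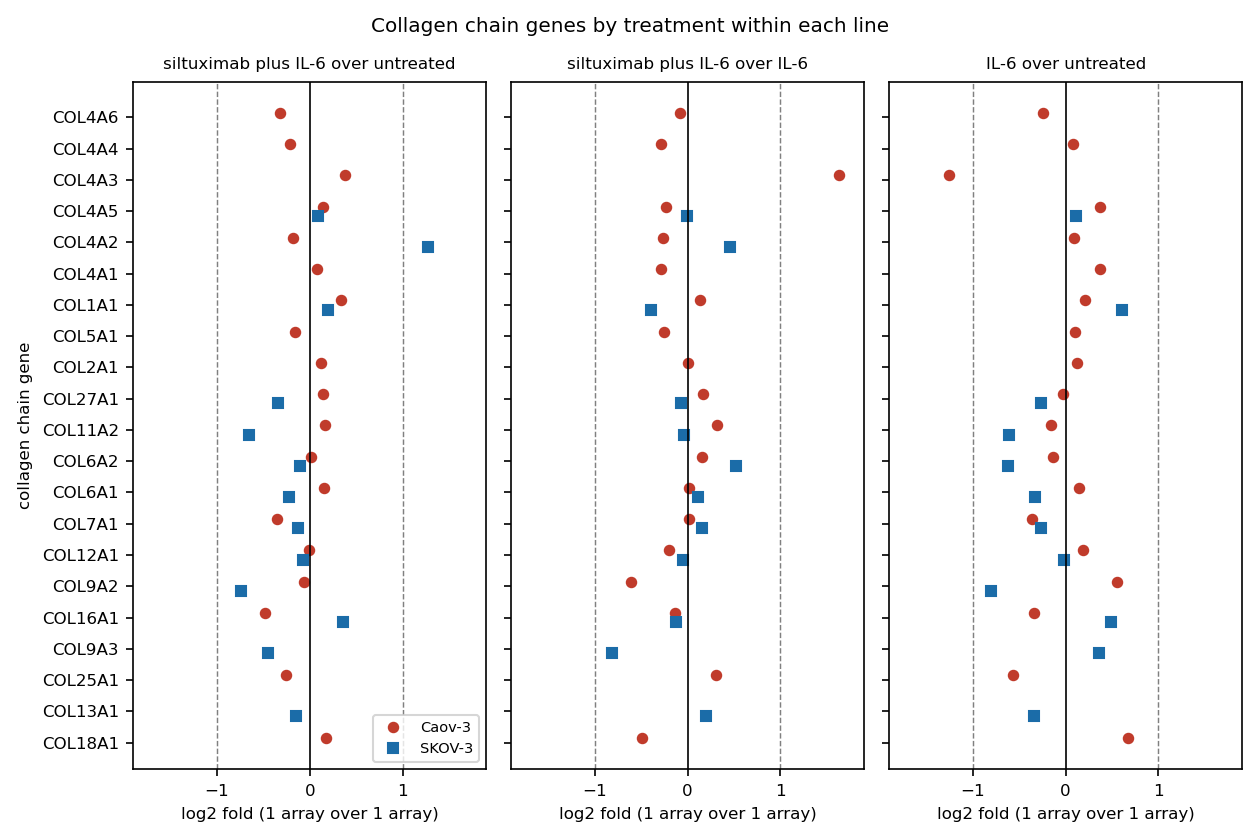
Log2 folds of 1 array over 1 array within Caov-3 (circles) and SKOV-3 (squares) for the 21 collagen chain genes of the line comparison, in 3 treatment comparisons, with dashed lines at 2-fold. Genes whose higher array was under its median are left out. COL4A3 in Caov-3 and COL4A2 in SKOV-3 lie outside the dashed lines.

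Collagen chains are hydroxylated, chaperoned, exported, trimmed and crosslinked by a set of enzymes. From the genes listed for this, COLGALT2 had no probe set with a symbol of its own and was left out. Among the other 33 genes 28 were bright enough for the line comparison. Of these, 12 were higher in Caov-3 and 9 lower (background 38.6% and 32.3%), with a median difference of -0.03 beside 0.07 over all genes. P3H2, a prolyl 3-hydroxylase that acts on basement membrane collagen, was at 3.78 with siltuximab plus IL-6, 2.12 with IL-6 and 2.98 untreated in Caov-3, against 7443, 7477 and 8440 in SKOV-3. The difference was -8.60 (SE 0.139, adjusted p 1.21e-07), opposite in direction to the type IV chains. P3H2 passed the filter through SKOV-3 alone, and since its Caov-3 signals were far under the added 17.06, the size is set by that constant. Its other probe set was under the median on all arrays, at -0.06.

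PLOD2, a lysyl hydroxylase of collagen, was at 8969 with siltuximab plus IL-6, 7166 with IL-6 and 8353 untreated in Caov-3, against 1666, 1565 and 1668 in SKOV-3, a difference of 2.30 (SE 0.0806, adjusted p 1.06e-06). Its relatives PLOD1 and PLOD3 were lower in Caov-3, both at -0.69 (adjusted p 0.00238 and 0.00206). The prolyl 4-hydroxylase subunits P4HA1, P4HA2 and P4HB were higher, at 1.89, 1.25 and 0.98. A further probe set of P4HA2, at or above the median on all 6 arrays, was at -0.03. SERPINH1, the collagen chaperone, was at 0.00 (SE 0.0742, adjusted p 0.981). BMP1, which cuts off the C-terminal propeptide, was higher at 2.77 (adjusted p 9.7e-06), and its enhancer PCOLCE at 3.07 (3.51e-05), while PCOLCE2, of the same kind, was lower at -3.16 (3.18e-06). Further probe sets of BMP1 at or above the median on all 6 arrays were at 1.91 and 1.17. Of the crosslinking oxidases, LOX (1.41) and LOXL3 (1.04) were higher, LOXL2 (-1.08) and LOXL4 (-0.85) lower, and LOXL1 at -0.05 did not pass.

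**Figure D5:**
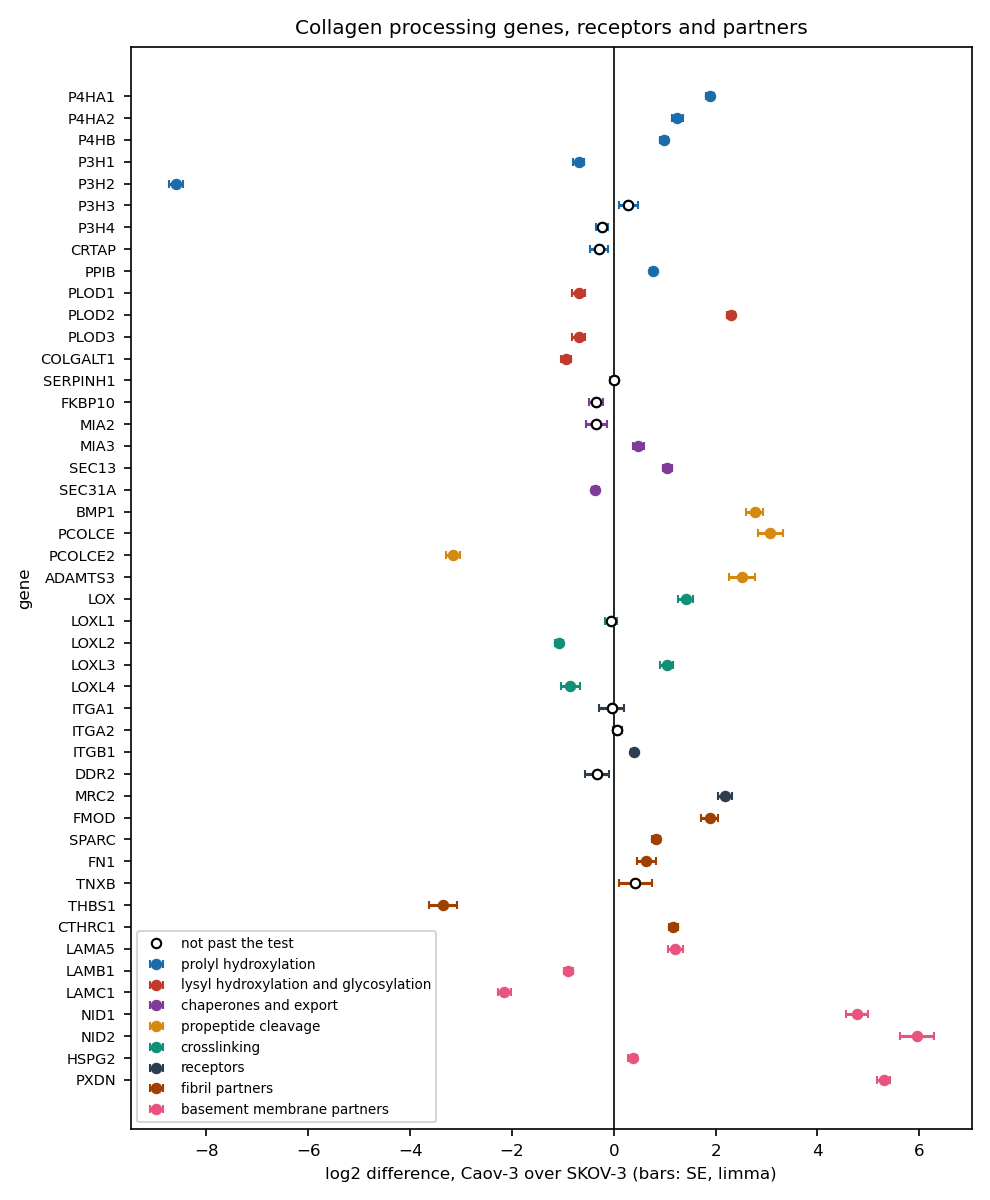
Log2 difference of Caov-3 over SKOV-3 (horizontal axis, SE bars from limma, 3 arrays of each line) for genes that process collagen, collagen receptors and matrix partners, coloured by role. Open points did not pass the test. P3H2, whose size is set by the added constant, lies at -8.60, and NID2, PXDN and NID1 lie at 5.95, 5.30 and 4.77.

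Of the receptors and partners listed, the receptor DDR1 had no probe set with a symbol of its own and was left out. Among the other 25 genes 18 were tested, with 11 higher and 3 lower in Caov-3 (background 38.6% and 32.3%). Of 7 basement membrane partners, 5 were higher and 2 lower. But 3 of the higher ones, NID1, NID2 and PXDN, passed the filter through Caov-3 alone, which favours a difference. NID1, which links laminin to collagen IV, was at 1008 with siltuximab plus IL-6, 960 with IL-6 and 848 untreated in Caov-3, against 31.5, 16.4 and 9.395 in SKOV-3, a difference of 4.77 (SE 0.215, adjusted p 3.07e-06). Its relative NID2 was at 5.95 (SE 0.334, adjusted p 7.37e-06). PXDN, the peroxidase that crosslinks collagen IV, was at 3551, 3880 and 3642 in Caov-3 and 79.4, 67.6 and 84.8 in SKOV-3, a difference of 5.30 (SE 0.13, adjusted p 3.27e-07). The laminin chains LAMC1 (-2.15) and LAMB1 (-0.89) were lower in Caov-3, and LAMA5 (1.21) was higher.

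Of the receptors, 2 of 5 tested were higher in Caov-3, near the 38.6% of all genes. They were MRC2 (2.19, adjusted p 1.18e-05), which takes up collagen fragments, and the integrin chain ITGB1 (0.39, adjusted p 0.000811). The collagen-binding integrin chains ITGA1 and ITGA2 were at -0.04 and 0.07 and the collagen-binding kinase DDR2 at -0.33, and none of these passed. The second probe set of ITGA2, at or above the median on 5 arrays, was at -0.88. Of 6 fibril partners tested, 4 were higher (38.6% of all genes), among them FMOD at 1.88 and SPARC at 0.83, and THBS1 was lower at -3.36 (adjusted p 4.06e-05). The second probe set of SPARC, at or above the median on all 6 arrays, was at 3.09. Further probe sets of THBS1 at or above the median on at least 2 arrays were at -1.35, -2.44 and -0.98.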

How the data were processed

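Signal intensity per probe set on a linear scale was deposited by the authors. The submitters' processing notes name MAS5 and Affymetrix Expression Console, without versions. Groups follow the sample titles, 1 array each. Of 54675 probe sets, 41091 carried 1 symbol in the array annotation and 41037 were matched to current gene records. Probe sets with several symbols or none were left out. To each value 17.06 was added before log2, the 20th percentile of the deposited intensity of probe sets with 1 symbol. Line and treatment were factors in limma 3.58.1 (R 4.3.3) on 6 arrays with a trended prior variance, and a gene was called at an adjusted p under 0.05 over the 12290 genes with at least 2 arrays at or above their median. The fit was also run on simulated data with known line differences. Their independent normal noise was drawn from the fit's own variances, so that run cannot test it on unreplicated pools. Other steps used Python 3.11.15. Members past the filter are named with their values, the others by range and counts. Protein sequences were not used here. The members and gene lists were chosen with earlier results of these data known. Normalization, pseudocount, filter, probe set choice and leaving out each array were varied. P-values of a line difference are set against how that difference varied over the 3 treatments. Those of a treatment are set against how its effect varied between the lines. Neither measures the spread of biological replicates, which these arrays are not.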

Additional observations from a re-analysis of the deposited data

Results flagged for a closer look

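COL4A2 is listed because its fold of siltuximab plus IL-6 over untreated had opposite signs in the lines, with a log2 fold of -0.18 in Caov-3 and 1.28 in SKOV-3. The Caov-3 value lies within the robust SD of 0.33 of genes of like expression and shows no direction. Each value is 1 array over 1 array, and the difference between the lines was not tested. The second probe set of the gene was dim in SKOV-3, at a fold of 0.06.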

How the results depend on the processing

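The count of 20 collagen genes called between Caov-3 and SKOV-3 was 12 when the filter was set at the 75th percentile, which left 12 members to test, and 17 to 20 when an array was left out. It was within 1.5 times the main count under all other settings. No member changed direction in the line difference under any setting in which it was tested. The run that dropped the suffixes _x_at and _s_at tested 15 members. COL1A1, COL4A5, COL9A3, COL11A2, COL13A1 and COL18A1 were not among them. With the mean of all probe sets 18 members were tested, and COL2A1, COL4A3 and COL9A2 were not. COL6A2 lost its call when probe sets with the suffix _x_at or _s_at were dropped (-0.25, adjusted p 0.354), and COL7A1 (-0.25) and COL27A1 (-0.16) with the mean of all probe sets. For treatment no setting called a collagen gene. Over all genes the count for IL-6 over untreated was 0 to 451 when an array was left out, for siltuximab plus IL-6 over IL-6 0 to 207, and for siltuximab plus IL-6 over untreated 0 to 3. The highest counts for both comparisons with IL-6 alone came without the SKOV-3 IL-6 array, and the highest for the last without the Caov-3 IL-6 array. In each of these fits IL-6 alone rests on 1 array. The part of the low ACTB ratio of the Caov-3 array in these counts was not tested. The fold of COL4A3 with IL-6 in Caov-3 moved to -0.67 with the mean of all probe sets, and that of COL4A2 in SKOV-3 to 0.63 with a pseudocount at the median. The line difference was paired by treatment, and without that block 21 members were called. No replicate block could be fitted because each group had 1 array. Signal near background limits what the 22 untested members can show.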
